A study of Homo sapiens with 6 samples.

Results

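Nucleotide excision repair removes bulky lesions that distort the DNA helix, among them the intrastrand crosslinks that platinum drugs form. In global genome repair, the complex of XPC, RAD23B and CETN2 and the DDB1-DDB2 heterodimer find the lesion. In transcription-coupled repair a stalled RNA polymerase II recruits ERCC6, ERCC8 and UVSSA, and the elongation factor ELOF1 takes part. Both routes meet at TFIIH, the general transcription factor whose helicases open the DNA, after which XPA verifies the lesion, ERCC1-ERCC4 and ERCC5 cut the damaged strand on either side of it, and the gap is filled and sealed. The mRNAs of 31 genes of this pathway, taken as a list of gene names from the known pathway, were compared between untreated and oxaliplatin-treated cells of HCT116, a human line established from a colorectal carcinoma and wild-type for p53. The list was chosen with earlier results of these data known. All 31 were found among the 27942 genes of the deposited table.

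The treated group (OXA) had received 0.5 µM oxaliplatin for 24 h and the control group (NT) no drug, with 3 libraries each from the same p53 wild-type, CTNNB1 mutant line. Both groups were grown in RPMI medium with serum, and per the methods of the study this treatment did not significantly alter cell density. The labels do not say whether the 3 libraries of a group came from separate cultures, so p-values measure the spread between these libraries, which may be technical. In bulk RNA, fewer cells with a transcript and less transcript per cell cannot be told apart. Library totals ranged from 32979521 to 40967880 counts. The 5 epithelial markers EPCAM, KRT8, KRT18, CDH1 and CLDN7 had between 1799 and 58081 raw counts in every library, as fits the labelled line. Of 5 markers each of fibroblasts, leukocytes and endothelial cells, all but COL1A1 (107 to 273 counts) and CD68 (152 to 237) stayed at or below 29 raw counts, and DCN was at 0 throughout. The summed raw counts of the epithelial markers, not scaled for library size, did not overlap, with 71011 to 95233 in NT and 95516 to 115893 in OXA. KRT8 and KRT18 had the highest counts in these sums, and the single markers differed in direction. KRT18 was higher in OXA without overlap (27104 to 32368 in NT and 34339 to 41131 in OXA). CDH1 was lower without overlap (3874 to 4254 and 3282 to 3585), and EPCAM, KRT8 and CLDN7 overlapped. The summed fibroblast markers ranged from 118 to 290 counts in NT and from 195 to 282 in OXA, the leukocyte markers from 168 to 221 and from 184 to 243, and the endothelial markers from 31 to 37 and from 20 to 48. The part of these markers in the results was not tested.

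Of the 31 mRNAs, those of the damage sensors DDB2 and XPC were higher after oxaliplatin. DDB2 mRNA rose 2.38-fold and XPC mRNA 1.67-fold. They were the only 2 of the 31 with an adjusted p-value under 0.05 in edgeR's quasi-likelihood test, and 0 genes were lower at this threshold. The test compared OXA with NT over 13727 genes that passed a filter on low counts, and the p-value was adjusted by the Benjamini-Hochberg method over all of them (edgeR adjusted p). Over all genes tested, 2.78% were higher and 2.29% lower at the same threshold (5.07% in either direction), so a count of 2 in 31 is not far from the background. limma-voom called the same count of 2 higher and 0 lower (2.73% and 2.11% of all genes, 4.84% in either direction), and DESeq2, the tool named in the study, 3 and 0 (4.43% and 4.13%, 8.56% in either direction). Before adjustment, 6 of the 31 genes had a p-value under 0.05 and were higher and 0 were lower, against 10.7% and 11.1% of all genes. The median log2 fold change of the 31 genes was 0.10, against 0.023 over all genes tested. Every one of the 31 passed the filter, with raw counts from 257 to 29967 in a library, so none was left out for low expression. Libraries of the same number in NT and OXA shared deviations from their group means. When the number entered the fit as a block (the replicate block), 8 of the 31 genes were higher and 0 lower, against 12.1% and 10.9% of all genes (23.0% in either direction).

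Sequence around the transcription start was examined for DDB2 and XPC, because these 2 genes moved most and both are known targets of p53, the transcription factor activated by DNA damage. RefSeq promoter windows of 250 bases before to 50 bases after a start were at hand for 30 of the 31 genes (46 windows, GRCh38.p14). The p53 consensus site consists of 2 elements of 10 bases each, and the consensus element is its own reverse complement, so a single scan covers both strands. A full site without mismatch, with a spacer of 0 to 13 bases between the elements, was found in 1 of the 46 windows, that of DDB2, and in 10 of the 35116 windows of all genes (0.0285%). It spans bases 6 to 26 of one of the 2 annotated DDB2 starts. In XPC the best match without spacer, at bases 13 to 32, had 3 mismatches. Matches of that quality or better were found in 6.52% of the windows of the 31 genes, those of DDB2, XPC and CETN2, and in 5.2% of all windows, so the XPC match is not uncommon. The sites are shown 5′ to 3′ on the strand of the gene with the elements in capitals, and they lie at chr11:47214975-47215004 (plus strand) and chr3:14178565-14178594 (minus strand). A match describes the letters only, and binding was not measured here.
DDB2: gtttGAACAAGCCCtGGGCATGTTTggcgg
XPC: aagtgGAATTTGCCCAGACAAGCAAcatgg

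DDB2 (ENSG00000134574, chromosome 11 of GRCh38 from 47214465 to 47239217) encodes the subunit of the DDB1-DDB2 heterodimer that binds the lesion, and its loss causes xeroderma pigmentosum. Counts normalized for library size by TMM (normalized counts) were 1416, 1638 and 1603 in NT libraries 1 to 3 and 3773, 3919.7 and 3371 in OXA libraries 1 to 3. Every OXA library thus lay far above every NT library. The log2 fold change was 1.25 with a standard error of 0.10 (edgeR adjusted p = 0.00218), which is 2.38-fold with a 95% interval from 2.02 to 2.80. When each of the 6 libraries was left out in turn, DDB2 passed every time, with log2 fold changes between 1.19 and 1.28. No exon of another annotated gene overlaps it.

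No partner of DDB2 passed without the block. DDB1, the adaptor that links DDB2 to the CUL4 ubiquitin ligase, had 23451, 22863 and 24373 normalized counts in NT and 27893, 26063 and 26701 in OXA. These groups do not overlap, but the log2 fold change of 0.19 (standard error 0.080) missed the threshold (edgeR adjusted p = 0.219) and reached it only with the replicate block (edgeR adjusted p = 0.0415). The cullin scaffold CUL4A had 3655 ± 266 (mean ± SD, n = 3) normalized counts in NT and 4054 ± 97.4 in OXA. It passed neither without the block (log2 fold change 0.15, edgeR adjusted p = 0.372) nor with it (edgeR adjusted p = 0.119). For its paralog CUL4B the log2 fold change was -0.0050, and for the RING subunit RBX1 it was 0.083. CUL4B had a 95% interval of 0.817-fold to 1.22-fold, so a change beyond 1.5-fold lay outside its interval.

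Because DDB1 and DDB2 work as a pair, the ratio of their raw counts was taken within each library, which removes any library-wide scaling. Deviations that vary with the GC content of a transcript, described below, are not removed where partners differ in GC content. Such partners are ERCC1 (GC content 56.2%) and ERCC4 (39.9%), with ratios of 2.04, 3.35 and 3.27 in NT libraries 1 to 3. The DDB2 to DDB1 count ratio was 0.0604, 0.0716 and 0.0658 in NT and 0.135, 0.150 and 0.126 in OXA, 2.08 times higher on average, with no overlap. The ratio of XPC to RAD23B was 0.116 ± 0.018 in NT and 0.167 ± 0.012 in OXA and that of XPC to CETN2 1.90 ± 0.41 and 2.97 ± 0.40, again without overlap. For ERCC1 to ERCC4 it was 2.89 ± 0.74 and 4.36 ± 0.95, and for CUL4A to CUL4B 0.825 ± 0.042 and 0.921 ± 0.091. The ratio of CCNH to CDK7 was lower in OXA, at 0.769 ± 0.042 against 0.876 ± 0.037, and its groups did not overlap either. With 3 libraries against 3, an exact permutation test with both tails cannot go below 0.10, which was the value for these 6 ratios. It was 0.20 for ERCC8 to ERCC6 and for MNAT1 to CDK7. Adjusted over the 8 ratios, the smallest value was 0.133, so none passed. How often ratios of other gene pairs do not overlap was not computed.

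**Figure D1:**
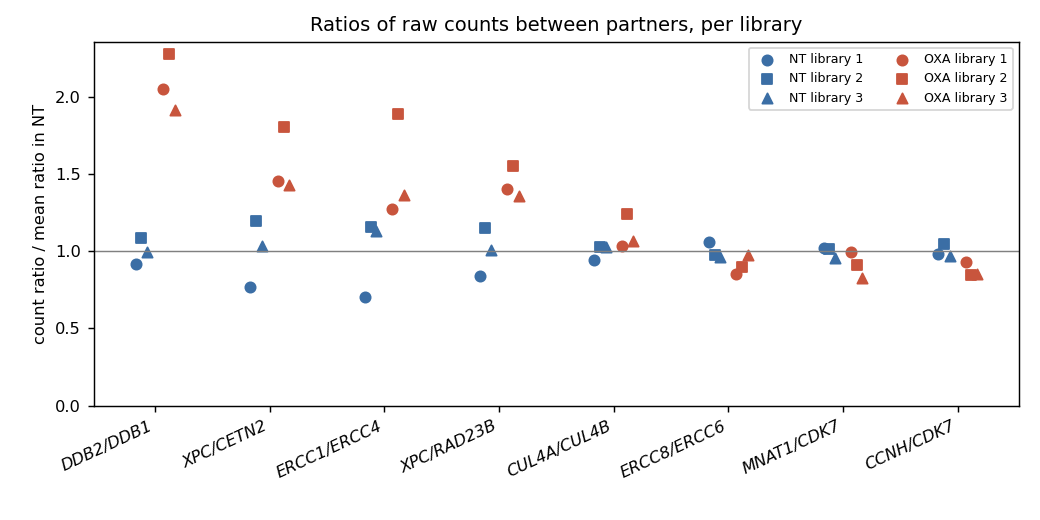
Ratio of raw counts between 2 partner genes in each of the 6 libraries, divided by the mean ratio of the 3 NT libraries (vertical axis from 0), with NT in blue, OXA in red and the library number as the marker shape. The ratio of DDB2 to DDB1 shows the widest separation, at 2.08 times the NT mean, whereas ERCC8 to ERCC6 and MNAT1 to CDK7 overlap.

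XPC (ENSG00000154767, chromosome 3 of GRCh38 from 14145147 to 14178621) encodes the protein that detects helix distortion across the genome. Its normalized counts were 1875, 2245 and 2036 in NT and 3549.9, 3481 and 3233 in OXA, and the lowest OXA library exceeded the highest NT library by a wide margin. The log2 fold change was 0.74 with a standard error of 0.098 (edgeR adjusted p = 0.00936), or 1.67-fold with a 95% interval from 1.42 to 1.95. With 1 library left out, the log2 fold change stayed between 0.68 and 0.78, but the call was lost in some of these fits. Without NT library 3, OXA library 1 or OXA library 2 the edgeR adjusted p rose to 0.0509, 0.0669 and 0.0525, at log2 fold changes of 0.70, 0.71 and 0.73. Higher genes over the whole table fell in the same 3 fits, from 381 to 115, 66 and 94. Exons of XPC overlap antisense transcripts, mainly XPC-AS1, over 1553 bases, and although the library kit was stranded, the strand setting of the counting is not given in the sources used here.

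RAD23B, which stabilizes XPC, was among the most abundant of the 31 mRNAs, with 19227, 16759.8 and 17352 normalized counts in NT and 21743, 19258 and 20506 in OXA. The groups nearly met, as OXA library 2 was only just above NT library 1. The log2 fold change of 0.21 passed with the replicate block only (edgeR adjusted p = 0.253 without and 0.0278 with it). CETN2, the centrin of the complex, overlapped between groups with 1103 ± 161 and 1162 ± 137 normalized counts (log2 fold change 0.075, edgeR adjusted p = 0.81).

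**Figure D2:**
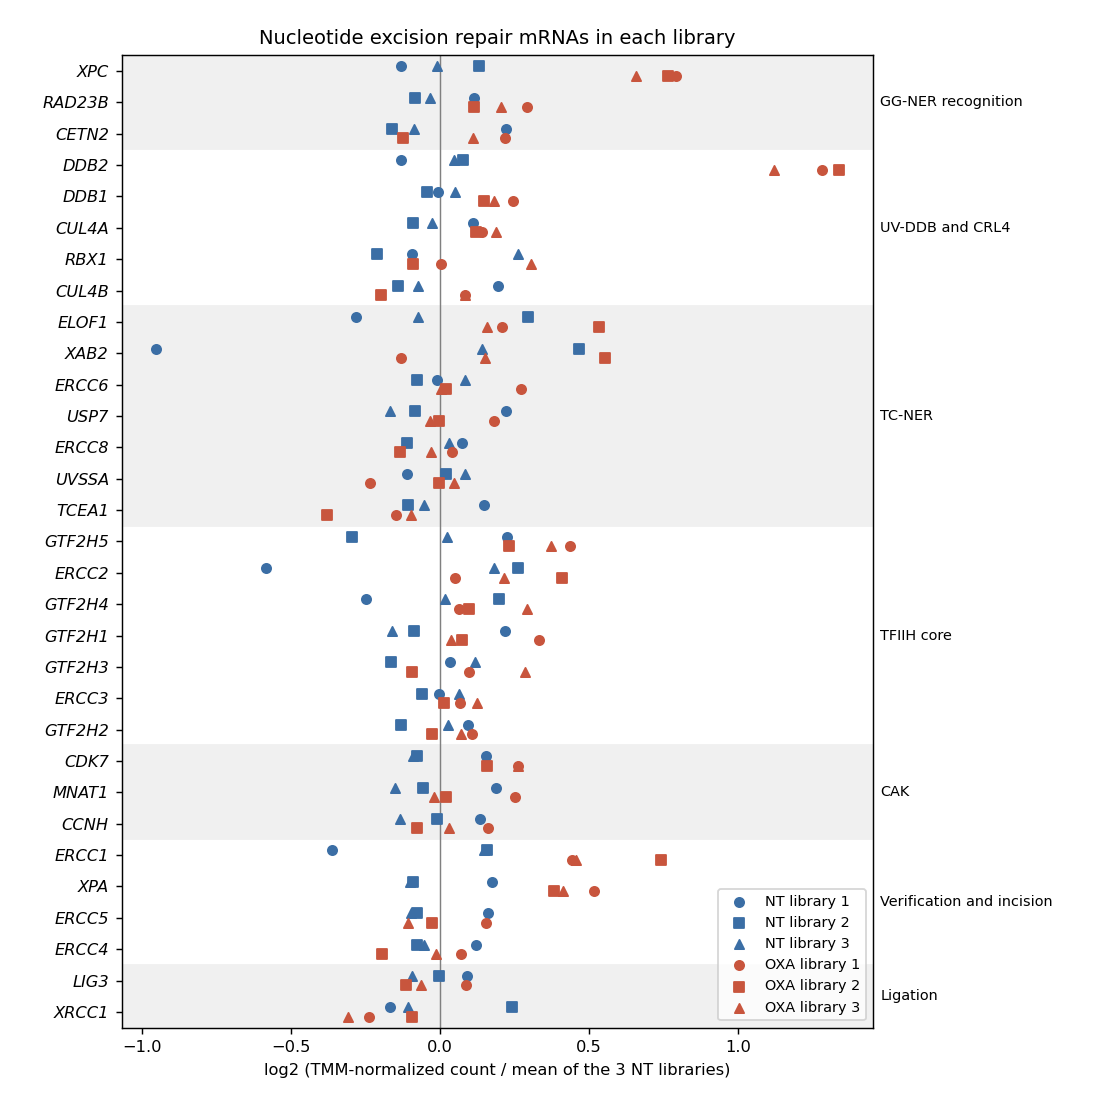
Normalized count of each of the 31 mRNAs in each library as a log2 ratio to the mean of the 3 NT libraries (horizontal axis), with NT in blue and OXA in red, the library number as the marker shape and genes grouped by role. DDB2 and XPC stand apart from the NT points by the widest margin, and XAB2 shows NT library 1 far below the other libraries.

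Of the 4 verification and incision genes, none passed in the fit without the block, and XPA and ERCC1 passed with it. XPA, whose protein verifies the lesion, had 321, 267 and 266 normalized counts in NT and 407, 371 and 379 in OXA, so the groups did not overlap. Its log2 fold change was 0.44 with a standard error of 0.14 (edgeR adjusted p = 0.115, and 0.0284 with the replicate block). Without NT library 1 the edgeR adjusted p was 0.0430, and without any other single library it lay between 0.252 and 0.338. ERCC1 (ENSG00000012061, chromosome 19 of GRCh38 from 45407334 to 45478828), the non-catalytic subunit of the ERCC1-ERCC4 nuclease, had 1706, 2443 and 2425 normalized counts in NT and 2976, 3658 and 3004 in OXA. NT library 1 was low here, but the lowest OXA library still exceeded the highest NT library. The log2 fold change of 0.55 (standard error 0.16) missed the threshold without the block (edgeR adjusted p = 0.093) and passed with it (0.0148). ERCC1 was also the third gene that passed in DESeq2 (adjusted p = 0.0225), and it passed in edgeR with the gene-specific factors of the deposited normalized values (adjusted p = 0.0394). It did not pass in limma-voom (adjusted p = 0.0934) or with changed size factors or low-count filters (edgeR adjusted p from 0.0854 to 0.117). Nor did it pass without both libraries numbered 1 (edgeR adjusted p = 0.0950) or with any 1 library left out (0.0572 to 0.289). Its exons overlap those of POLR1G on the opposite strand over 1593 bases. The nuclease subunit ERCC4 (log2 fold change -0.042, edgeR adjusted p = 0.877) and the other nuclease gene ERCC5 (0.0093, edgeR adjusted p = 0.978) had 95% intervals of 0.802-fold to 1.18-fold and 0.826-fold to 1.23-fold.

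All 7 core subunits of TFIIH had log2 fold changes above 0, from 0.051 to 0.35, but none passed the threshold without the block. Values above 0 were also found in 24 of the 31 genes and in 7313 of the 13727 genes tested. GTF2H2 and GTF2H3 changed sign in fits that left out 1 library. GTF2H5, the smallest subunit and the gene of a form of trichothiodystrophy, had 1007, 703 and 874 normalized counts in NT and 1164, 1011 and 1114 in OXA. The lowest OXA library was only just above the highest NT library. Its log2 fold change was 0.35 with a standard error of 0.15 (edgeR adjusted p = 0.222, and 0.0329 with the replicate block). Without NT library 1 the edgeR adjusted p was 0.0484, and without any other single library it lay between 0.333 and 0.477. The helicase genes ERCC2 and ERCC3 did not pass in either fit, and the ERCC2 value rested on NT library 1. ERCC2 had 1082 normalized counts there against 1942 and 1836 in the other NT libraries, and its log2 fold change of 0.23 was 0.011 without that library. ERCC3 varied little between libraries, with 2594 ± 113 and 2721 ± 104 normalized counts (log2 fold change 0.069). GTF2H1, GTF2H2, GTF2H3 and GTF2H4, the structural subunits, had log2 fold changes of 0.15, 0.051, 0.10 and 0.15.

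No gene of the kinase module of TFIIH, which phosphorylates RNA polymerase II, passed in the main fit or with the replicate block alone. For its kinase gene CDK7, normalized counts were 1918, 1631 and 1619 in NT and 2062, 1921 and 2063 in OXA. OXA library 2 was barely above NT library 1, and the log2 fold change of 0.23 had an edgeR adjusted p = 0.249, or 0.0598 with the replicate block. The cyclin gene CCNH (0.042) and the assembly factor gene MNAT1 (0.088) overlapped between the groups.

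**Figure D3:**
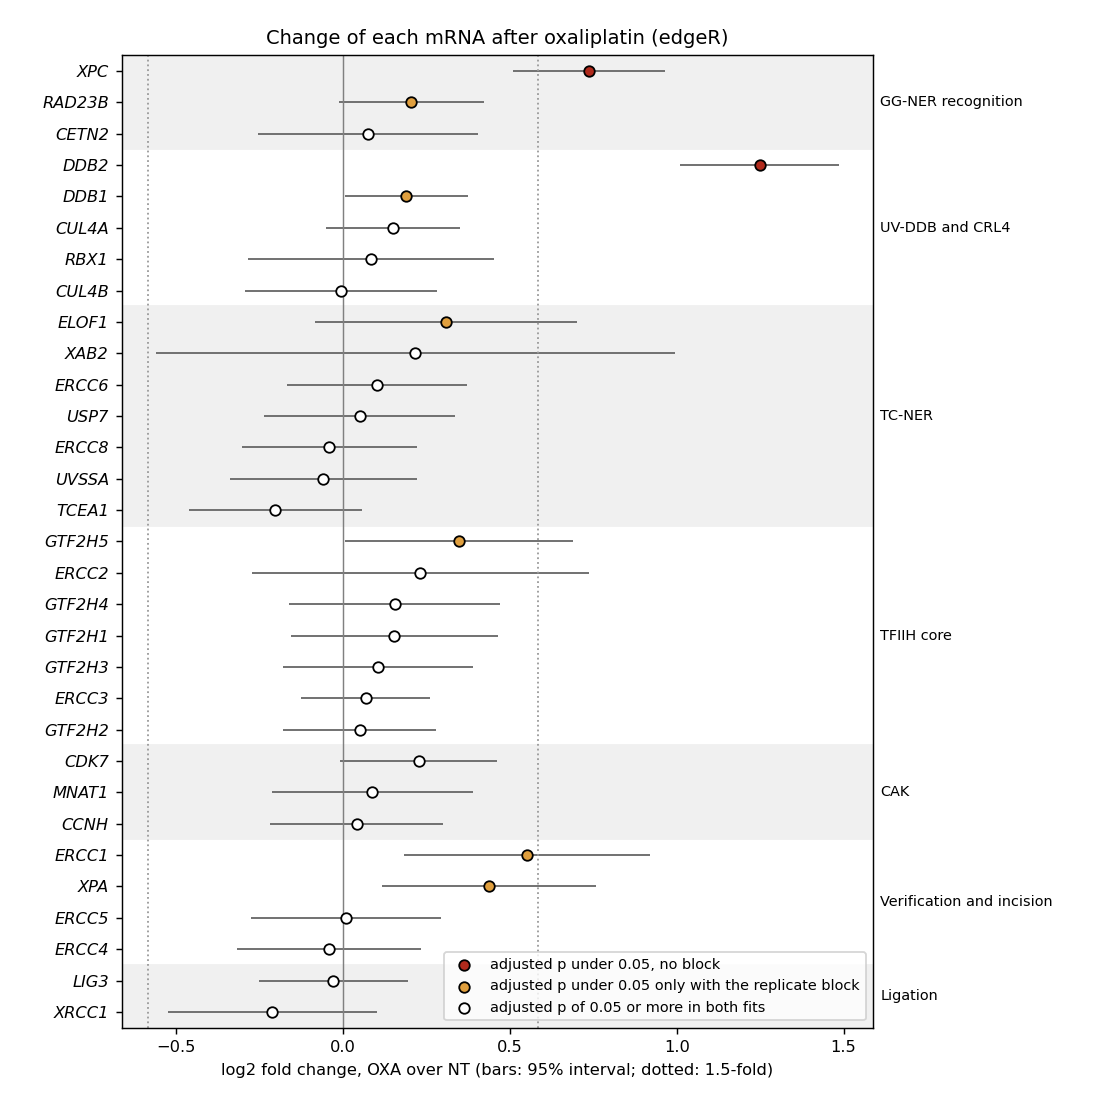
Log2 fold change of OXA over NT for each of the 31 mRNAs (horizontal axis) with its 95% interval (bars), grouped by role, where the fill gives the fit in which the edgeR adjusted p was under 0.05 and dotted lines mark 1.5-fold. DDB2 and XPC passed without the block, 6 further genes with the block only, and 23 of the 31 intervals lie inside the dotted lines.

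Of the 7 genes of transcription-coupled repair, ELOF1 passed with the replicate block only. ELOF1, an elongation factor that helps to ubiquitylate the stalled polymerase, had 1443, 2152 and 1666 normalized counts in NT and 2025, 2539 and 1955 in OXA, so the groups overlapped while each OXA library lay above the NT library of its number. Its log2 fold change was 0.31 (edgeR adjusted p = 0.346, and 0.0304 with the block). ERCC6 and ERCC8, the Cockayne syndrome genes, had 844 ± 47.4 and 616 ± 40.5 normalized counts in NT and 907 ± 97.1 and 599 ± 35.9 in OXA (log2 fold changes 0.10 and -0.040). UVSSA, which brings USP7 and TFIIH to the polymerase, had a log2 fold change of -0.058 and USP7 one of 0.051. TCEA1, which encodes the elongation factor TFIIS, was at 8757, 7336 and 7604 normalized counts in NT and 7132, 6077 and 7388 in OXA (log2 fold change -0.20, edgeR adjusted p = 0.349). Of the ligation genes, LIG3 had a log2 fold change of -0.028 and XRCC1 one of -0.21, with edgeR adjusted p-values of 0.899 and 0.419. XRCC1 had 1197, 1591 and 1250.3 normalized counts in NT and 1140.4, 1261 and 1087 in OXA. In both TCEA1 and XRCC1 each OXA library was below the NT library of its number and the groups overlapped. Neither passed with the replicate block (edgeR adjusted p = 0.0754 and 0.106). A blocked fit chosen after seeing the data, with GC and length trends removed, called both lower (edgeR adjusted p = 0.0294 and 0.000803). That fit called 22.1% of all genes lower and 45.4% in either direction.

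The 95% intervals give the size of change that these libraries could resolve. For 23 of the 31 genes the whole interval lay within 1.5-fold in either direction, which held for 50.8% of all genes tested. The other 8 were DDB2, XPC, XPA, ERCC1, ERCC2, GTF2H5, XAB2 and ELOF1. XAB2, an XPA-binding protein that also acts in splicing, had the widest interval, from 0.678-fold to 1.99-fold. The groups did not overlap in 9 of the 31 genes, all with OXA above NT, against 14.5% of all genes tested with OXA above and 14.4% with OXA below (28.9% together). These 9 were XPA, XPC, DDB1, DDB2, RAD23B, ERCC1, GTF2H5, CDK7 and CUL4A.

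Deviations of single libraries from their group mean varied with the base composition of the transcripts. The coefficient of variation among the NT libraries ranged from 3.23% for DDB1 to 44.1% for XAB2, with a median of 9.83%. The 4 largest belonged to XAB2, ERCC2, ELOF1 and ERCC1, all on chromosome 19 and with GC contents of 61.6%, 60.0%, 59.7% and 56.2%. The size of the spread did not track GC content throughout, since GTF2H5 (GC content 39.4%) had a coefficient of variation of 17.7% and UVSSA (55.3%) one of 6.73%. XAB2 had 1217 normalized counts in NT library 1 and 3257 and 2598 in NT libraries 2 and 3, and 2153, 3455 and 2616 in OXA. Of the 11 genes with a GC content of at least 50%, 9 had their lowest NT value in library 1, whereas of the 20 others 17 had their highest NT value there. Across the 31 genes, the correlation of GC content with the deviation from the group mean was -0.83, 0.84 and 0.45 for NT libraries 1 to 3 and -0.76, 0.83 and -0.23 for OXA libraries 1 to 3. Over 13675 tested genes it was -0.72, 0.63 and 0.36 in NT and -0.45, 0.52 and -0.10 in OXA. Libraries numbered 1 and 2 thus had opposite signs in both groups, whereas those numbered 3 had weaker values that differed in sign between the groups. These are descriptions across genes that share the same libraries, and the deviations within a group are tied by their common mean.

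**Figure D4:**
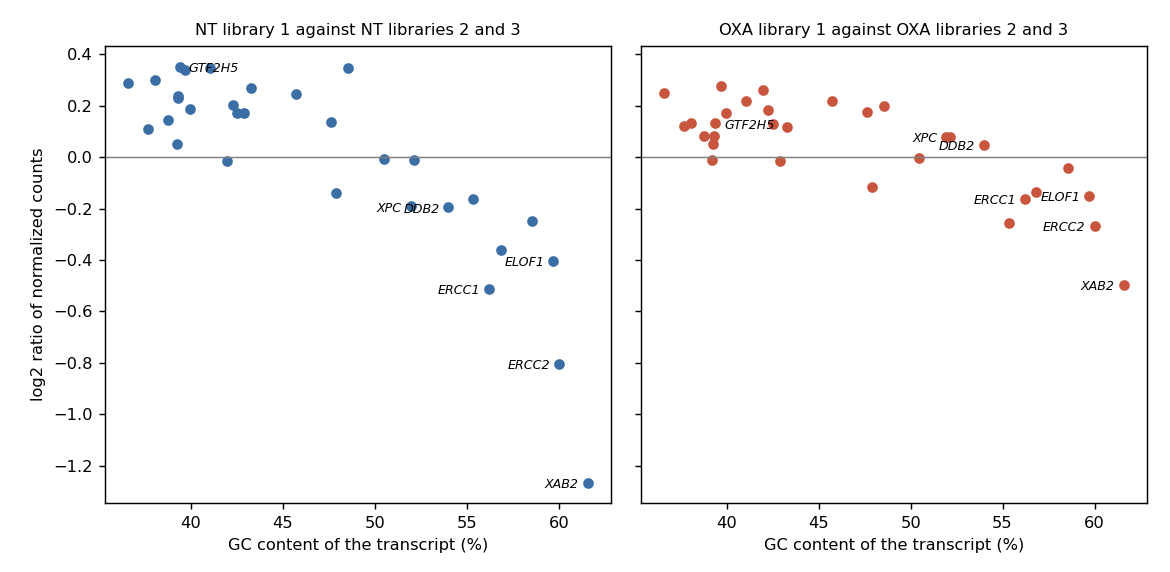
Log2 ratio of normalized counts in library 1 to the mean of libraries 2 and 3 of the same group (vertical axis) against the GC content of the transcript in percent (horizontal axis) for the 31 genes, with NT on the left and OXA on the right. GC-rich transcripts such as XAB2, ERCC2 and ERCC1 were low in library 1 of both groups, more so in NT.

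A pair of further fits, added after the data had been seen, addressed this property. Without both libraries numbered 1, DDB2 (log2 fold change 1.17, edgeR adjusted p = 0.0132) and XPC (0.65, edgeR adjusted p = 0.0316) were the 2 genes of the 31 that passed, with 1.58% of all genes called higher and 1.19% lower (2.77% together). When trends with GC content and length were removed per library in the fit with the block, 12 of the 31 genes were higher and 2, XRCC1 and TCEA1, lower, where 23.3% and 22.1% of all genes were called (45.4% together). Those called higher there but not with the block alone were CDK7 (edgeR adjusted p = 0.000856), GTF2H1 (0.00102), CUL4A (0.00164), GTF2H3 (0.00207) and MNAT1 (0.0143). The log2 fold change was -0.37 for XRCC1 and -0.12 for TCEA1. ELOF1 lost its call there (log2 fold change 0.066, edgeR adjusted p = 0.279). DDB2 and XPC had log2 fold changes of 1.14 and 0.70, and ERCC1 one of 0.46.

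On the scale of CPM (counts scaled to a common library size) per kilobase of the canonical transcript, the levels of the 31 mRNAs spanned a wide range. DDB1 had the highest level in NT, 154 ± 4.98 CPM per kilobase, followed by RAD23B at 120.1 ± 8.70 and TCEA1 at 79.1 ± 7.55. ERCC8, ERCC6 and ERCC4 were lowest, at 1.82, 2.61 and 3.16, and the lesion verifier XPA was at 5.65. This order rests on the canonical lengths, 9414 bases for ERCC8 and 1400 for XPA, whose mean normalized counts in NT were 616 and 285. Which transcript forms the cells used was not examined. DDB2 stood at 23.8 ± 1.83 in NT and 56.5 in OXA, where DDB1, RAD23B, TCEA1 and ELOF1 had higher means and ELOF1 (59.8 ± 8.78) and USP7 (52.3 ± 4.29) lay within the spread. XPC went from 15.6 to 26.1 CPM per kilobase, which stayed under its partner RAD23B in both groups. Levels of genes that share sequence are uncertain. Of the 100-base stretches of the GTF2H2 transcript, 86.1% also occur in transcripts of other loci such as its copy GTF2H2C. The share was 91.4% for ERCC5 (the readthrough gene BIVM-ERCC5), 91.8% for GTF2H4 (ENSG00000288473) and 20.6% for TCEA1 (TCEA1P2).

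**Figure D5:**
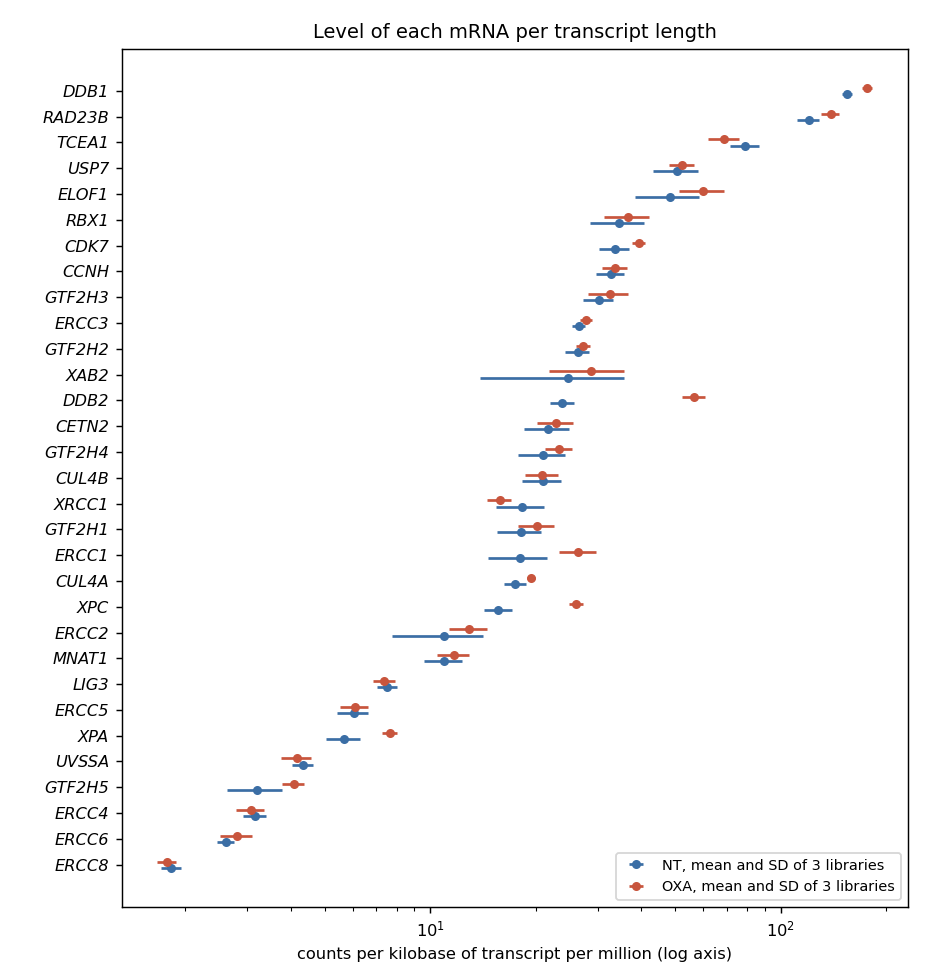
Level of each of the 31 mRNAs in CPM per kilobase of canonical transcript (horizontal log axis), ordered by the NT level, as mean and SD of 3 NT (blue) and 3 OXA (red) libraries. DDB1 and RAD23B lead at 154 and 120.1 in NT, and the DDB2 and XPC means are clearly displaced in OXA.

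Genes of the later repair step and regulators of the pathway, in lists also chosen with earlier results known, were looked up in the same fit. Of 19 genes for gap filling and its ligation, 5 were lower in OXA (edgeR adjusted p under 0.05, against 2.29% of all genes) and 0 higher, with a median log2 fold change of -0.34. The 5 were the clamp loader subunits RFC4 (log2 fold change -0.65), RFC5 (-0.64) and RFC2 (-0.39), the polymerase delta subunit POLD3 (-0.65) and RPA2 (-0.55), which coats single-stranded DNA. With the replicate block 10 of the 19 were lower (10.9% of all genes). Without NT library 3 or any 1 of the OXA libraries the count was 0. Lower genes over the whole table then numbered 69 without NT library 3 and 19, 32 and 67 without OXA libraries 1 to 3, against 315. Over the fits that left out 1 library, the log2 fold changes of the 5 genes ran from -0.76 (POLD3) to -0.37 (RFC2). The sliding clamp PCNA (-0.045) and the ligase LIG1 (0.017) did not pass in either fit. All of these also serve DNA replication. Of 22 paralogs, partners and regulators, TCEA3, a paralog of TCEA1, was higher (log2 fold change 0.98, edgeR adjusted p = 0.0118, against 2.78% of all genes) and 0 were lower. TCEA3 is far less abundant, with 158, 155 and 152 normalized counts in NT and 313, 328 and 276 in OXA. Its call was lost without NT library 2, NT library 3, OXA library 1 or OXA library 2, with edgeR adjusted p-values up to 0.0794. With the replicate block 7 of the 22 were higher (12.1% of all genes) and 0 lower, namely TCEA3, DDA1, NEDD8, COPS2, COPS5, COPS6 and COPS7A, of which all but TCEA3 were named after their values were seen. The last 4 belong to the COP9 signalosome, which removes NEDD8 from cullins. The other 5 signalosome genes in the list, GPS1, COPS3, COPS4, COPS7B and COPS8, did not pass with the block, and COPS3 had a log2 fold change of -0.13.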

How the data were processed

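RNA-seq libraries of 3 untreated and 3 oxaliplatin-treated HCT116 cell samples were used, grouped and numbered by their titles. Per the submitters' processing notes and the methods, reads were handled with Trimmomatic 0.32, STAR 2.7.5b on GRCh38, RSEM 1.3.3 and DESeq2 2.13. The library kit was stranded. The annotation and the strand setting of the counting are not given in the sources used here. The authors deposited a raw whole-number count per gene and library, which may be a rounded RSEM estimate and was used as deposited. The authors also deposited a normalized signal, a raw count times a factor that differs between genes and libraries, which served only an alternative.

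Members and gene lists were chosen with earlier results of these data known. Genes were filtered with filterByExpr (minimum count 10, minimum total 15), normalized by TMM and tested with edgeR 4.0.16 in R 4.3.3 on the whole table, with DESeq2 1.42.0 and limma 3.58.1 as alternatives. The threshold was an adjusted p of 0.05. Standard errors were the estimate over the square root of F. Positions, lengths and GC content of canonical transcripts came from GENCODE 44. All 31 members were named, and of the other lists the genes called. Same-numbered libraries correlated in their deviations (0.55, 0.54 and 0.31, against -0.47 to 0.090 between different numbers), so the block is reported beside a result whose call it alters. Deviations were taken from the mean of each group, so these correlations are not independent of each other. Nothing used here says what a number stands for. Replicate pairs differed by more than counting noise, with a chi-square per gene from 19.3 to 83.6. The steps were tested on simulated counts that held no effect of the replicate number and no GC or length trend, so that test does not cover these features. The fits without both libraries numbered 1 and with GC and length trends removed were chosen after seeing the data.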

Additional observations from a re-analysis of the deposited data

How the results depend on the processing

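The call of DDB2 kept its direction and its side of the threshold under all 16 alternatives, and that of XPC under all but 3 fits that each left out 1 library. Changed size factors, changed low-count filters, DESeq2 and limma-voom left the count of higher genes among the 31 within 1.5 times of 2. The replicate block gave 8 and, with GC content and length trends removed, 12 higher and 2 lower. Leaving out 1 library gave 1 to 4 higher. The count of higher genes over the whole table was 608 in DESeq2, 1664 with the block, 3190 with the block and trends removed, 241 with the gene-specific factors, 219 without both libraries numbered 1, and 66 to 623 with 1 library left out, against 381. For lower genes the values were 567, 1493, 3022, 200, 165 and 19 to 571, and 511 with library totals only, against 315. The lowest came without OXA library 1 and the highest without NT library 1. For gap filling, lower genes numbered 8 in DESeq2, 10 with the block, 13 with the block and trends removed (and 2 higher), and 0 to 6 with 1 library left out. For the regulators, higher genes numbered 7 with the block, 10 with trends removed as well, and 0 to 1 with 1 library left out.

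Genes without a call changed sign as follows, and the cause was not tested. With GC and length trends removed in the blocked fit, the log2 fold change was 0.055 for ERCC4, 0.061 for ERCC8 and 0.10 for CUL4B, which was also 0.057 without both libraries numbered 1. ERCC5 had -0.030 with library totals, -0.020 without a filter and -0.036 with the gene-specific factors, which also gave 0.0028 for UVSSA and 0.10 for LIG3. Over the fits that left out 1 library, values ran from -0.033 to 0.20 for CETN2, -0.11 to 0.029 for ERCC4, -0.070 to 0.096 for ERCC5, -0.12 to 0.0050 for ERCC8, -0.043 to 0.10 for GTF2H2, -0.027 to 0.19 for GTF2H3, -0.055 to 0.11 for CCNH, -0.015 to 0.19 for MNAT1, -0.14 to 0.022 for UVSSA, -0.094 to 0.50 for XAB2, -0.10 to 0.10 for CUL4B, -0.074 to 0.20 for RBX1, -0.061 to 0.18 for USP7 and -0.11 to 0.019 for LIG3.

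PCR duplicates could not be recognized from the counts. With 3 libraries a group, the 95% intervals of the GC-rich genes XAB2 and ERCC2 reached up to 1.99-fold and 1.67-fold.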
